A study of Mus musculus with 8 samples.

Results

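The stefins and cystatins described here are 8 genes, Stfa1, Stfa2, Stfa3, Stfa2l1, Cstdc5, Cstb, Cst3 and Cst7, out of 40230 features tested, of which 21791 carried a gene name. They were chosen on their values in these arrays, so their own mutant against wild type differences are given as a description, without a test. Each was read by 1 probe and 1 spot per array, found by its symbol or by the RefSeq transcript that the array design lists for it. The study compared embryos with both copies of the Gata2 +9.5 enhancer mutated (labelled Gata2+9.5-/-) with wild type littermates, all E12.5 embryos from matings of Gata2 +9.5+/- parents on the C57Bl/6J background. The mutation is carried by every cell of the embryo. The 4 mutant and 4 wild type embryos came from 2 litters, with 2 embryos of each genotype per litter, and each embryo was hybridised to its own one-colour array. The RNA came from cells held by magnetic beads bearing antibody to CD31, a surface protein of endothelium, platelets and several blood cells, after liver and brain had been removed. The material is thus a mixture, and fewer cells of a type and less RNA per cell cannot be told apart.

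Cystatins are small proteins that plug the active site of papain-like cysteine proteases, chiefly the lysosomal cathepsins. Stefins are the cytosolic branch, made without a signal peptide. Human cells have a single stefin A, whereas the mouse carries a cluster of stefin A copies on chromosome 16 that are known from myeloid precursors and neutrophils. Stefin B, encoded by Cstb, is made in nearly all cells. Cystatin C, encoded by Cst3, is the abundant secreted inhibitor of body fluids. Cystatin F, encoded by Cst7, is made by myeloid cells and cytotoxic lymphocytes, is sent to lysosomes and is known to act on cathepsin C, the protease that activates granule serine proteases.

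The starts of the stefin A genes are shown first, because these members share much of their sequence and because the mutated enhancer serves a gene for a GATA-binding factor. The runs below are the last 100 bases before each transcription start in RefSeq, build GRCm38.p6, written 5′ to 3′ on the strand of the gene. Capitals mark the GATA words, meaning GATA preceded by A or T and followed by A or G, searched on both strands.
Stfa1 (chr16:36277048-36277147, + strand): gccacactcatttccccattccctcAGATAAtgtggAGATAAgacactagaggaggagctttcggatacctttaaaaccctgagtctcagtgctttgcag
Cstdc5 (chr16:36367571-36367670, - strand): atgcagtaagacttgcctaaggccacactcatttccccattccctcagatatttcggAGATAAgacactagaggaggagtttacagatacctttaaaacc
Stfa3 (chr16:36455393-36455492, - strand): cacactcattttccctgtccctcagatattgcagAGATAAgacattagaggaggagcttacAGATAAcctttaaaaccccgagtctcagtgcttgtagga
Stfa2l1 (chr16:36156711-36156810, + strand): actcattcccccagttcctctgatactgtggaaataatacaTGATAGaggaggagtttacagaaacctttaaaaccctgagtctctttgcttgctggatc
Stfa2 (chr16:36408364-36408463, - strand): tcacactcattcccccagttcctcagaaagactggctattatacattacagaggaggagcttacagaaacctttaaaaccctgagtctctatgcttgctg
Cstdc4 (chr16:36184112-36184211, + strand): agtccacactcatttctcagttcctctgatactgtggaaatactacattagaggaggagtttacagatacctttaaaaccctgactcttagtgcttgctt
Cstdc4, a stefin outside the 8, is shown because it was the one further stefin to pass the test described below.

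Aligned over the 250 bases before the start and the first 50 after it, the 5 stefin A members formed 10 pairs with 82.9 to 96.1% identical bases. The closest were Stfa1 and Cstdc5, with 220 of 229 aligned bases identical. As a yardstick for the alignment itself, Stfa2 and the unrelated Cst7 start aligned over 180 bases with 73.9% identical. The start of a further stefin, Csta3, aligned with that of Cst7 over 122 bases with 76.2% identical. Of the starts printed above, Stfa3 and Cstdc4 had 75.9%. The GATA words occurred 2 times before Stfa1, 1 time before Cstdc5, 2 times before Stfa3 and 1 time before Stfa2l1. No such word stood in the 250 bases before Stfa2, Cstdc4, Cst3 or Cst7. Over 32851 promoters of the RefSeq table, 26.5% held such a word in the 250 bases and 10.4% in the last 100. The word TTTAAAA, read on the gene's strand, stood 9 to 33 bases before the start in all 5 stefin A members and 29 bases before Cstdc4, against 5.40% of all promoters over 250 bases and 1.70% over 100. The C/EBP word TTGCNNAA, on both strands, was found before Stfa1, Cstdc5 and Csta3 and in 9.56% of all promoters over 250 bases. Csta3, whose arrays of both genotypes overlapped, also had 2 GATA words in the 250 bases and TTTAAAA 77 bases before its start. The PU.1 word GAGGAA, on both strands, stood in the 250 bases before all 5 stefin A members and Cstdc4, against 23.3% of all promoters. The PU.1 word also stood before Cst3 and the stefin Csta1. The start of the stefin Csta2 held none of the words searched. The stefin A starts share most of their bases, so they do not count as separate observations against the shares over all promoters. A match of letters is a description of the sequence and not a measured site. The start of Cstb was not analysed here.

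The probes bear on what each value can mean. In the annotation of the files, which is on build mm9, the Stfa1 probe lies at chr16:36285398-36285457, the Cstdc5 probe at chr16:36359525-36359584, the Stfa2 probe at chr16:36404032-36404089 and the Stfa3 probe at chr16:36450693-36450752. The 60 bases of the Stfa2l1 probe map across chr16:36160118-36161876, a span of 1759 bases, so that this probe reads a spliced transcript, and the design lists transcripts of both Stfa2l1 and Stfa2 for it. The Cstdc5 probe carries the older name BC100530 in the files and shares a listed cDNA with the Cstdc6 probe. The Cstb probe lies at chr10:77890058-77890117, the Cst3 probe at chr2:148697681-148697740 and the Cst7 probe at chr2:150404490-150404549. All of these read transcripts, and no exon or UTR annotation of build mm9 was used here.

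Among the 11 stefin probes of the array, 0 of 55 pairs were identical and 7 could be aligned over at least 20 bases with at least 75% identity. The closest pair was Cstdc5 and Csta2, with 27 of 28 overlapping bases identical. Of the pairs within the set, Stfa3 and Cstdc5 aligned over 41 bases with 35 identical. Stretches of both pairs are printed to show how near the targets lie, with the differing bases in capitals.
Cstdc5 against Csta2: cttctaagcagcaaattctaaagtgAcc
Csta2 against Cstdc5: cttctaagcagcaaattctaaagtgTcc
Stfa3 against Cstdc5: actAacaaaaccaagACtgatgagctgacc
Cstdc5 against Stfa3: actGacaaaaccaagGAtgatgagctgacc
Cross-reading between such copies was not tested, and each stefin A value is that of its probe and may include near-identical transcripts.

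An array carried 62976 spots. Leaving out control spots, 74.9 to 92.0% were well above background, the scanner software's own mark for a measured spot. The 75th percentile of the intensity ran from 996 to 2481 between arrays and was set to 0 on each, so that every level below is a log2 value relative to that percentile. All 8 arrays correlated with each other at 0.892 to 0.980 across features. Probes printed repeatedly on the array, 399 in number, had a median SD between spots of 0.09 to 0.16 on the log2 scale. The interquartile range of the log2 values was narrower on mutant 4 (2.70), wild type 3 (3.04) and wild type 2 (3.30) than on the other arrays, where it reached 4.19. The 10 endothelial markers, Pecam1 (CD31 itself), Cdh5 and Kdr among them, had a mean log2 level of 3.68 to 5.34 on the wild type and 3.97 to 5.19 on the mutant arrays, and 0 of them passed the test between genotypes. Gata2 itself, the gene of the mutated enhancer, stood at 2.00, 1.66, 0.89 and 1.42 on the wild type and at -1.24, -0.15, -1.27 and -1.07 on the mutant arrays. The groups did not overlap, and the difference of -2.42 ± 0.39 (SE) had an adjusted p of 0.0858 by limma.

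The stefin A members were lower in the mutant embryos, whereas the general inhibitors stefin B and cystatin C were not. Of the 8 genes, 6 had a lower mean in the mutants and 2 a higher one, and in 5 every mutant array lay below every wild type array. Across all features, 215 of 40230 (0.534%) had mutant arrays that all lay below the wild type arrays. The median difference was -1.90 over the 8 genes, -3.01 over the 5 stefin A members and 0.05 over all features. Because the genes were chosen from this same contrast, nothing is read from these counts about the set. All 8 passed the filter, which asked that 4 or more of the 8 arrays give a signal well above background, but the wild type arrays alone could carry a gene through it. None was saturated on any array.

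**Figure D1:**
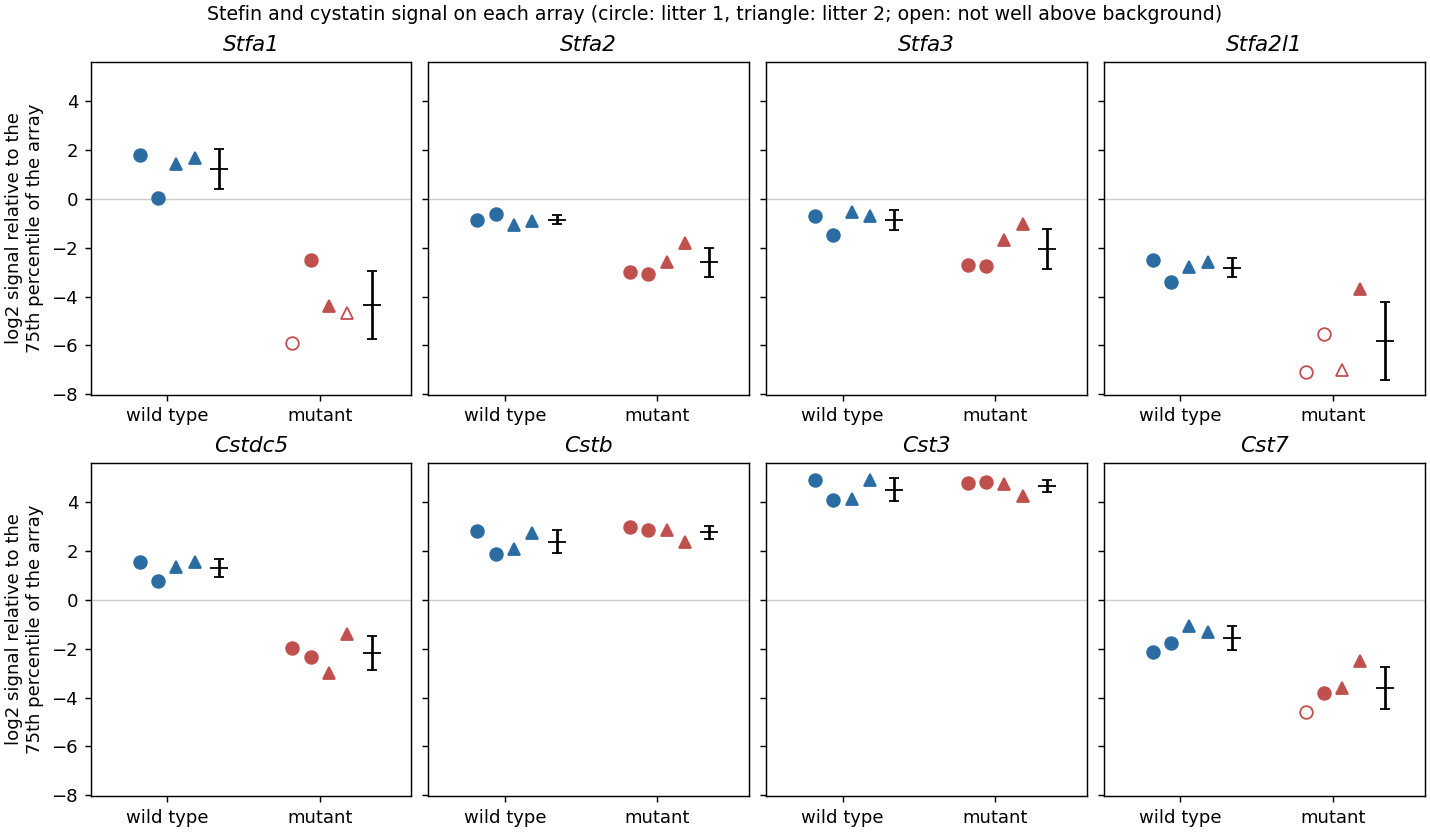
Log2 signal relative to the 75th percentile of the array (vertical axis) for each of the 8 genes on the 4 wild type (blue) and 4 mutant (red) arrays, with circles for litter 1, triangles for litter 2, open symbols for spots not well above background, and bars for the mean ± SD. The mutant arrays lie below all wild type arrays for Stfa1, Stfa2, Stfa2l1, Cstdc5 and Cst7, while Stfa3, Cstb and Cst3 overlap.

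Stfa1, a cytosolic stefin A, had log2 levels of 1.79, 0.02, 1.41 and 1.65 on wild type arrays 1 to 4. On mutant arrays 1 to 4 it stood at -5.89, -2.51, -4.37 and -4.67. The lowest wild type array, number 2, was still 2.53 above the highest mutant array, also number 2. The mean went from 1.22 ± 0.81 (SD, n = 4) to -4.36 ± 1.39 (SD, n = 4), a difference of -5.58 ± 0.66 (SE), or 47.7-fold lower. Only 2 of the 4 mutant arrays, numbers 2 and 3, were well above background, so the size of the difference rests partly on values near the floor of the measurement. With dim values raised to the lowest measured signal of the array, the difference was -5.25.

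Cstdc5 belongs to the same cluster and its start is the one most like that of Stfa1. Its levels were 1.57, 0.79, 1.36 and 1.54 on the wild type arrays and -1.97, -2.34, -3.01 and -1.38 on the mutant arrays. All 8 arrays measured it above background, and 2.17 separated the lowest wild type from the highest mutant array. The difference was -3.49 ± 0.41 (SE), from 1.32 ± 0.36 to -2.18 ± 0.68 (SD, n = 4 each), or 11.3-fold lower. Stfa1 and Cstdc5 were among the 18 of 40230 features (0.0447%) lower in mutants at an adjusted p under 0.05 by limma. The members were chosen on their values in this same contrast, so nothing is read from these calls. No feature was higher at that threshold, against 1226 features in either direction at an unadjusted p under 0.05. The number of such features was 0 without wild type 1, 3 or 4 or without mutant 1 or 3, 6 without wild type 2, 20 without mutant 2 and 24 without mutant 4. With the litter as a block it was 0, with 1954 features at an unadjusted p under 0.05.

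Stfa2l1 was measured above background on the fewest mutant arrays. It stood at -2.49, -3.39, -2.80 and -2.57 on the wild type arrays and at -7.07, -5.52, -7.00 and -3.71 on the mutant arrays. Only mutant 4 was well above background, and that array lay 0.31 below the lowest wild type array. The difference of -3.01 ± 0.67 (SE) therefore has little weight as a size, and it became -1.67 with dim values raised to the lowest measured signal and -1.37 with another background correction followed by quantile normalization. In the values as reported, 3 of the 4 mutant arrays give bounds rather than levels.

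Stfa2 was measured on all arrays. Its wild type levels were -0.88, -0.61, -1.07 and -0.90, the tightest of the stefin A members with an SD of 0.19. The mutant levels were -2.99, -3.06, -2.57 and -1.80, so that mutant 4 came closest to the wild type arrays, at a distance of 0.73. The difference was -1.74 ± 0.37 (SE), or 3.34-fold lower.

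Stfa3 showed the smallest difference of the 5 stefin A members. It stood at -0.70, -1.47, -0.56 and -0.71 on the wild type arrays and at -2.71, -2.76, -1.69 and -1.05 on the mutant arrays. Here the groups overlapped, since mutant 4 lay above wild type 2. The difference was -1.19 ± 0.45 (SE), or 2.28-fold lower, and both mutants of litter 1 lay below both of litter 2.

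Cst7, the lysosomal cystatin F, lies on chromosome 2 and not in the stefin cluster. Its levels were -2.14, -1.75, -1.05 and -1.33 on the wild type arrays and -4.57, -3.82, -3.59 and -2.50 on the mutant arrays. Mutant 1 was not well above background, and the groups were apart by 0.36. The difference was -2.05 ± 0.46 (SE), or 4.15-fold lower.

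The general inhibitors gave another picture. Cstb, encoding stefin B, stood at 2.83, 1.89, 2.07 and 2.72 on the wild type and at 2.99, 2.87, 2.84 and 2.37 on the mutant arrays. The groups overlapped, with a difference of 0.39 ± 0.35 (SE). Cst3, encoding secreted cystatin C, stood at 4.91, 4.07, 4.13 and 4.92 on the wild type and at 4.79, 4.83, 4.74 and 4.27 on the mutant arrays. Its difference was 0.15 ± 0.35 (SE), and it changed sign to -0.25 with quantile normalization, -0.24 with normexp and quantile normalization and -0.13 without wild type 2, wild type 3 and mutant 4. Neither difference was larger than the spread of its arrays, and no direction holds for Cst3.

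Leaving out the 3 arrays with the narrowest range of values left 7 of 8 genes lower, Cst3 having changed side. The differences were then -5.98 for Stfa1, -4.00 for Cstdc5, -4.00 for Stfa2l1, -1.99 for Stfa2, -1.68 for Stfa3 and -2.26 for Cst7. Each was at least as far below 0 as with all arrays. The genes were chosen on this contrast, so the kept sign is a description.

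**Figure D2:**
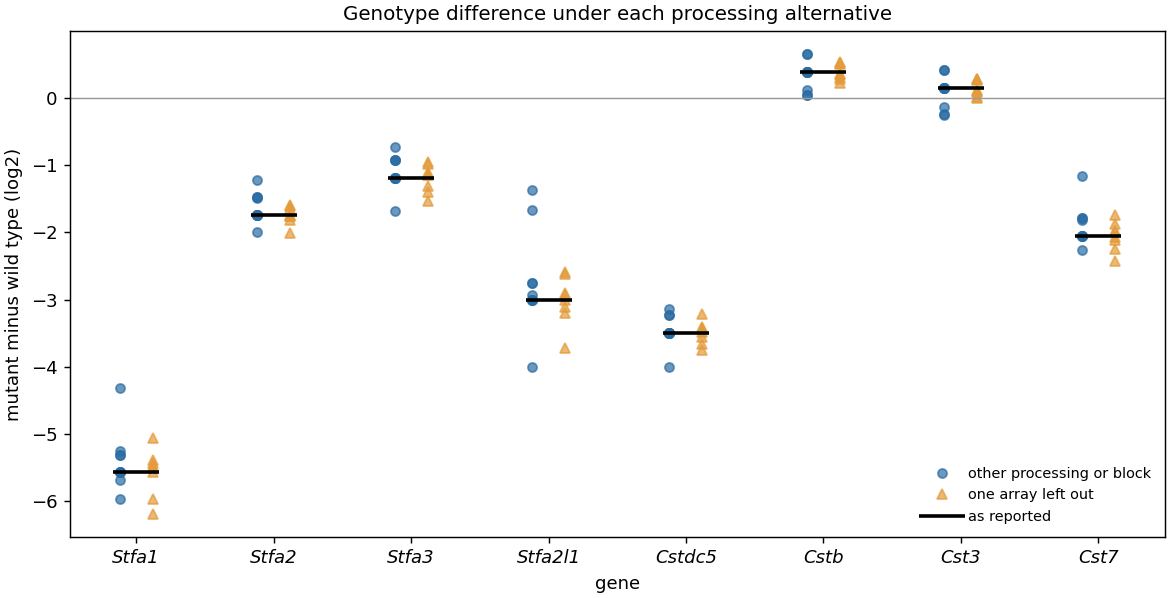
Mutant minus wild type difference (log2, vertical axis) of each gene as reported (black bar), under another processing or with a block (blue circles) and with one array left out (orange triangles). The 5 stefin A members and Cst7 stay below 0 throughout, from -6.19 for Stfa1 without mutant 2 to -0.73 for Stfa3 with normexp and quantile normalization, whereas Cst3 falls on both sides of 0. The genes were chosen on this contrast, and where groups did not overlap, leaving arrays out could not change the sign.

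The 2 litters, each on its own slide, allow 2 measures that did not choose the genes, the litter difference and the interaction of genotype and litter. The question was whether stefin and cystatin levels differed between litters and whether the genotype difference did. Between litters, with genotype in the model, 1976 features passed an adjusted p of 0.05 by limma (4.91%), and 0 of the 8 genes did, with 2 of them, Cst7 and Stfa3, at an unadjusted p under 0.05, as were 10395 of the 40230 features. The number of features past the adjusted threshold rested on single arrays: it was 4 without mutant 2, 25 without mutant 1, 215 without mutant 3, 457 without wild type 4, 514 without wild type 1, 602 without mutant 4 and 4034 without wild type 2. The largest litter differences were those of Cst7, at 0.95 ± 0.34 (SE, adjusted p = 0.129), and Stfa3, at 0.91 ± 0.33 (SE, adjusted p = 0.134), both higher in litter 2. The other 6 genes ran from -0.15 for Cstb to 0.60 for Stfa2l1. The median litter difference of all features was 0.32 after this scaling, so only Stfa2l1, Stfa3 and Cst7 lay above the median feature. With arrays set to their median in place of the 75th percentile, Cst7 and Stfa3 stood at 0.48 and 0.44, and Stfa1, Stfa2 and Cstdc5 turned to below 0. Litter, slide and a tag in the sample titles that splits the arrays in the same way cannot be told apart.

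The genotype differences within each litter average to the contrast that chose the genes, so their sign is a description and only their interaction was tested. Stfa1 differed by -5.10 in litter 1 against -6.05 in litter 2. In the same order, Cstdc5 differed by -3.34 and -3.65, and Stfa2l1 by -3.35 and -2.67. These genes differed little between litters against the SE of the interaction, which was 1.41 for Stfa1, 0.85 for Cstdc5 and 1.39 for Stfa2l1. Stfa2 differed between genotypes by -2.28 in litter 1 against -1.20 in litter 2, Stfa3 by -1.65 against -0.73, and Cst7 by -2.25 against -1.86. The interaction of Stfa2 was 1.07 ± 0.64 (SE) and that of Stfa3 0.91 ± 0.66 (SE), each with an adjusted p of 1.00 by limma. No feature passed the interaction test (0%), while 490 had an unadjusted p under 0.05 by limma and 4 passed on the authors' deposited log2 values.

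**Figure D3:**
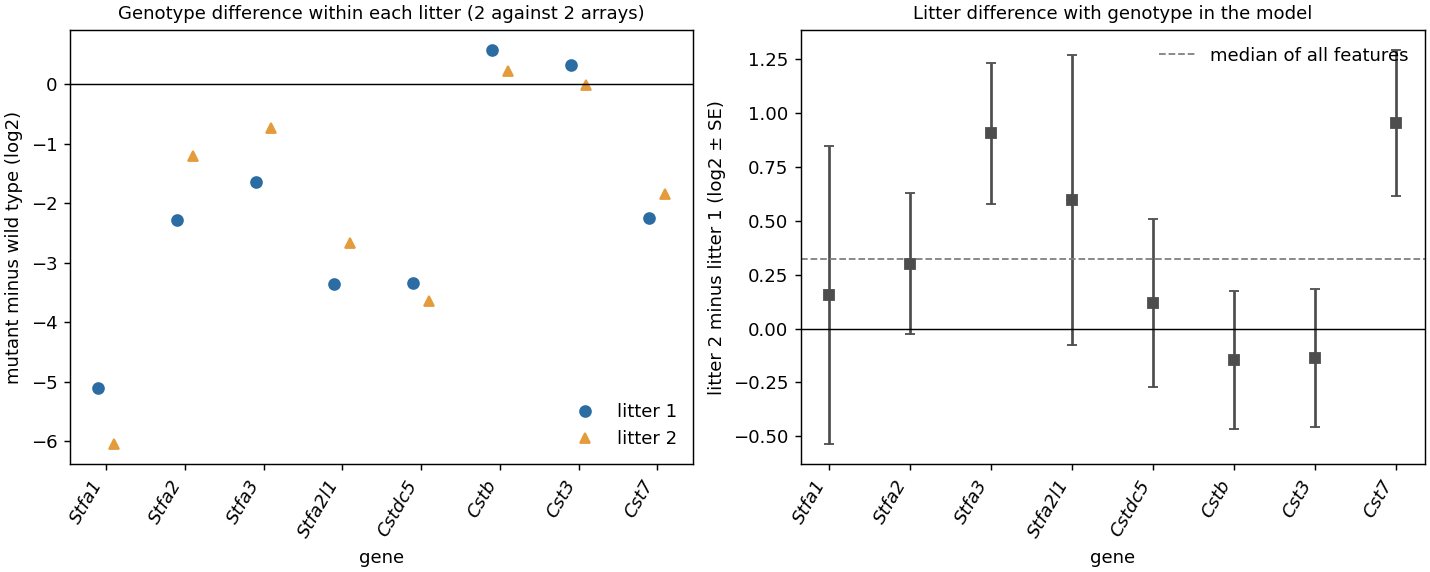
Left, mutant minus wild type difference (log2) of each gene within litter 1 (circles) and litter 2 (triangles), each from 2 against 2 arrays. Right, litter 2 minus litter 1 (log2 ± SE) with genotype in the model, with the median of all features (0.32) as a dashed line; Stfa3 and Cst7 stand highest but pass no adjusted threshold.

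Stefins outside the set were tested between genotypes as well. They were not used to choose the set, but they were listed with earlier results of these arrays known. Some of their probes also resemble those of members. The Cstdc4 probe aligned with the Stfa3 probe over 35 bases with 30 identical, and Csta2 with Cstdc5 over 28 with 27 identical. Their results are therefore not independent of those of the members. Of 12 symbols listed, some of them older names of the same genes, 6 had a probe of their own and 5 passed the filter. All 5 were lower in the mutants, with a median of -0.96, and 1 passed an adjusted p of 0.05. That gene, Cstdc4, stood at -1.34, -1.69, -1.21 and -1.57 on the wild type and at -5.66, -5.36, -5.25 and -3.36 on the mutant arrays. Only mutant 4 was well above background, and no mutant array reached the wild type range. Cstdc4 fell by 3.45 ± 0.49 on the log2 scale (SE, adjusted p = 0.0499 by limma). It passed the filter through its 4 wild type arrays, so the size and the test rest on 3 mutant values near background, and it has no value where all 8 arrays must be well above background. The call is at the edge of the threshold: the adjusted p was 0.0643 with litter as a block and 0.174 with the sample number as a block, it ran from 1.03e-05, on the authors' deposited log2 values, to 0.306 over the alternatives, and 6 of 18 of them passed. With one array left out it passed only without mutant 4.

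The other stefins of the cluster showed smaller differences that did not pass the test. Csta3 differed by -1.08 ± 0.46 (SE), Cstdc6 by -0.96 ± 0.51, Gm4758, which the design ties to a Cstdc3 transcript, by -0.77 ± 0.42, and Csta2, the mean of 10 spots, by -0.58 ± 0.39. Each had an adjusted p of 0.717 by limma, and the arrays of both genotypes overlapped. The Csta2 levels ran from -3.99 to -3.12 on the wild type and from -4.95 to -3.69 on the mutant arrays. Csta1 was not well above background on any wild type array and was measured on mutant 2 alone, at -2.15. Its mean was 1.36 higher in the mutants, a difference with little weight as a size.

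Along the chromosome, the stefins formed a run of genes with negative differences between flanks whose genes differed in both directions. All 10 stefins measured in the cluster, from Stfa2l1 to Stfa3 in the order of the RefSeq gene table, had a lower mean in the mutants, from -0.58 for Csta2 to -5.58 for Stfa1. Csta1, whose probe lies at a lower coordinate than that of Stfa2l1, did not pass the filter and is not counted. Its mean was higher in the mutants. Of the 20 nearest measured genes, 10 on each side, 7 were lower and 13 higher, with a median of 0.30. None passed the test, the lowest adjusted p being 0.717 by limma, and none had an unadjusted p under 0.05. Their differences ran from -1.01 ± 0.65 (SE) for Hspbap1 to 0.52 ± 0.40 for Ccdc58. Stefins aside, Ccdc58 was the nearest measured gene on the side of Stfa2l1. Casr, the nearest on the side of Stfa3, differed by -0.11 ± 0.50. Stfa1, with the largest difference, stood between Csta2 at -0.58 and Gm4758 at -0.77. The 5 members of this run were chosen on this contrast, so the comparison with the flanks was not tested as a difference. Across all features, 19140 of 40230 had a lower mean in the mutants. The 7 lower flanking genes had wild type means of -4.61 to 0.09, and the 13 higher ones of -1.40 to 7.17. Wild type means of the 10 stefins ran from -3.54 to 1.32. Whether the differences followed signal level was not tested.

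**Figure D4:**
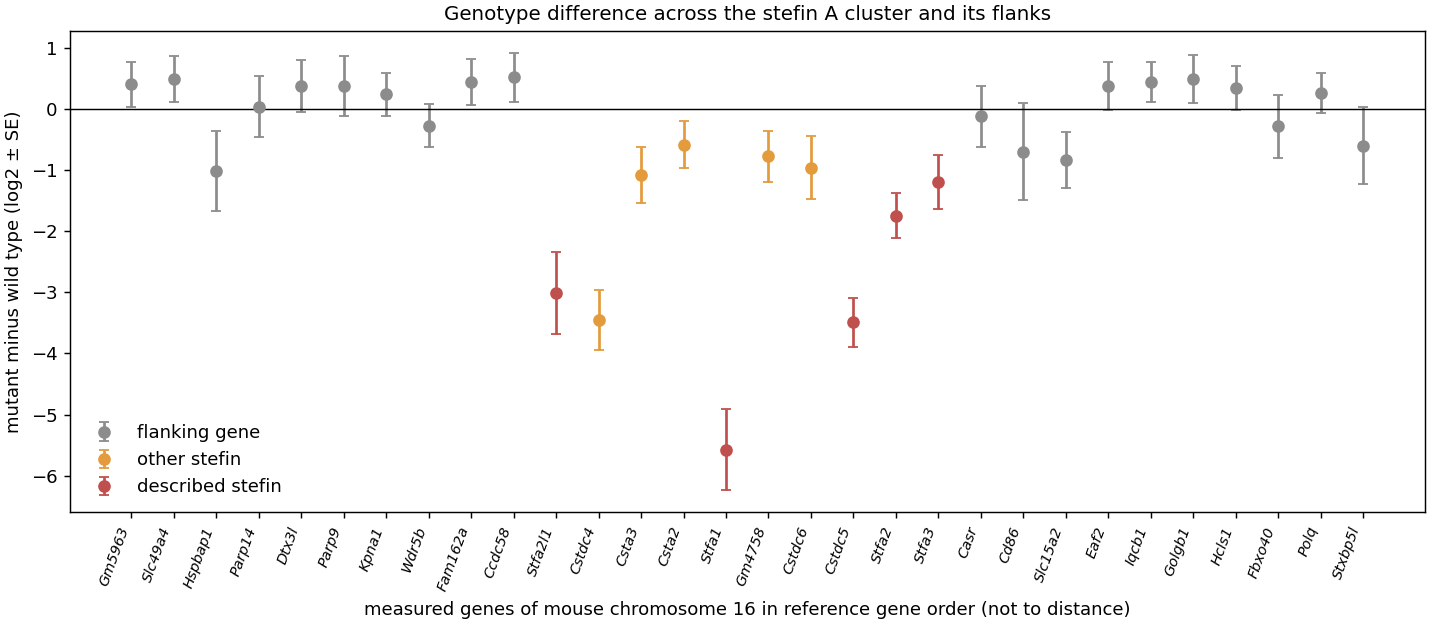
Mutant minus wild type difference (log2 ± SE, vertical axis) for the measured stefins on chromosome 16 and 10 measured genes on each side, in reference gene order and not to distance. Red marks the described stefins, orange other stefins and grey flanking genes; the stefins lie between -0.58 and -5.58 and the flanking genes between -1.01 and 0.52.

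The secreted cystatins, relatives of cystatin C many of which are known from the reproductive tract, did not pass the test between genotypes. Of 12 listed, 7 were tested, 4 lower and 3 higher, with 0 past the threshold by limma and 1, Cstdc2, at an unadjusted p under 0.05. Cstdc2 and Cst12, the brightest of them, differed by -1.38 ± 0.54 and -1.11 ± 0.65 (SE, adjusted p = 0.717 by limma for each). Between litters, Cst13 was higher in litter 2 by 2.00 (adjusted p = 0.0408 by limma), the one secreted cystatin past that threshold. Kininogens and fetuins, plasma proteins built with cystatin domains, had 6 of 6 tested and 0 past the threshold between genotypes by limma, also at an unadjusted p under 0.05. Of these, Kng1 differed by 0.67 ± 1.13 (SE) over 7 arrays, its spot on wild type 2 having been set aside as an outlier, and Fetub by -0.63 ± 0.53. Kng1 was higher in litter 2 by 3.12 (adjusted p = 0.0289 by limma).

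The proteases that cystatins inhibit did not show the difference of the stefins. All 11 cysteine cathepsins and legumain were tested, 9 higher and 2 lower in the mutants, with a median difference of 0.10 and 0 past the threshold by limma, adjusted or unadjusted. Their differences stayed between -0.26 and 0.43. Ctsl, encoding cathepsin L, a main lysosomal endopeptidase, stood at 5.09, 4.35, 4.05 and 4.82 on the wild type and at 5.31, 5.10, 4.85 and 4.63 on the mutant arrays. Its groups overlapped, with a difference of 0.40 ± 0.35 (SE, adjusted p = 0.717 by limma). Ctsz, encoding the carboxypeptidase cathepsin Z, differed by 0.19 ± 0.36 (SE, adjusted p = 0.797).

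Cathepsin C is the protease cystatin F is known to act on. Ctsc stood at -0.48, -0.57, -0.52 and -0.10 on the wild type and at -0.28, -0.19, -0.50 and -0.70 on the mutant arrays. The groups overlapped, with a difference of 0.0018 ± 0.31 (SE). A second, dimmer Ctsc probe, which was not tested, differed by -0.65 with overlapping groups. It was well above background on 4 wild type and 2 mutant arrays. Among the other cathepsins, the serine carboxypeptidase gene Ctsa differed by 0.39 ± 0.38 (SE) and the aspartic protease gene Ctsd by -0.04 ± 0.32, neither past the threshold. Ctsg, encoding a serine protease of neutrophil granules, differed by -0.85 ± 0.42 (SE, adjusted p = 0.717 by limma). Over the 5 lists of relatives and proteases, 32 genes were tested and Cstdc4 alone passed.

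**Figure D5:**
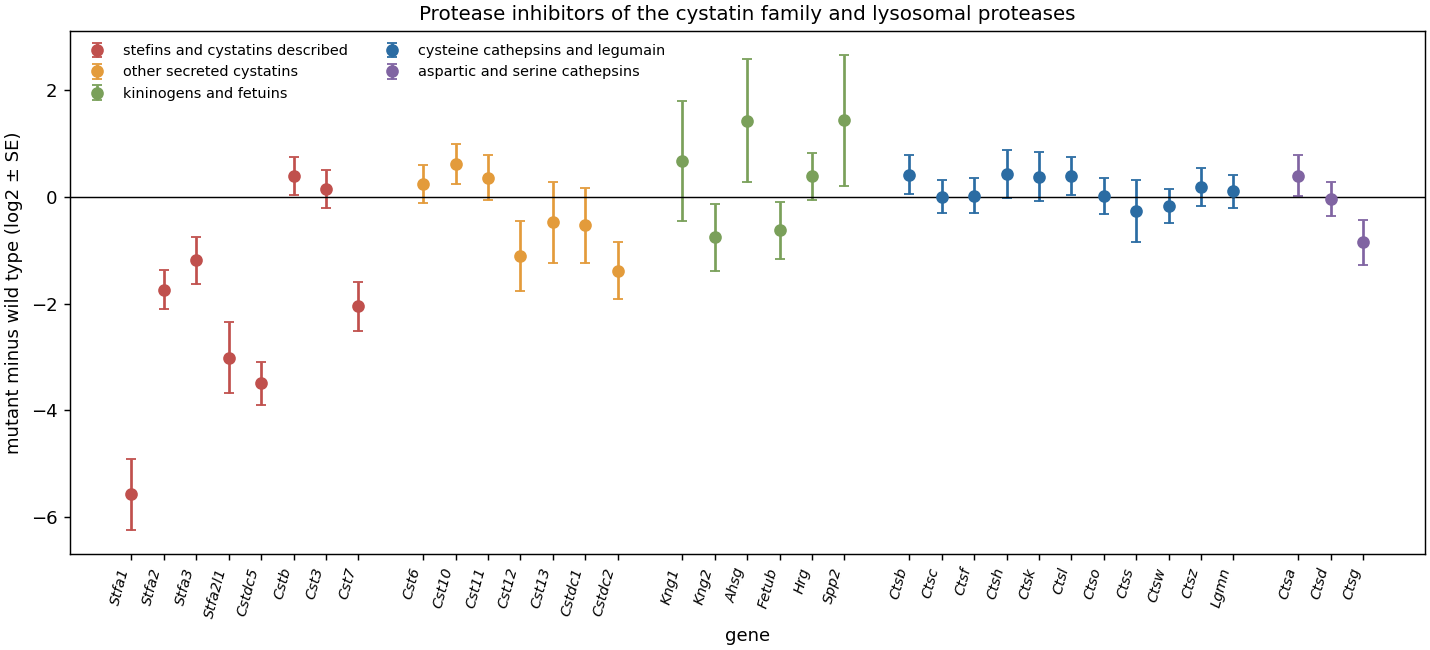
Mutant minus wild type difference (log2 ± SE, vertical axis) for the 8 described genes (red), other secreted cystatins (orange), kininogens and fetuins (green), cysteine cathepsins and legumain (blue) and aspartic and serine cathepsins (purple). The cysteine proteases lie between -0.26 and 0.43, while the stefin A members lie between -5.58 and -1.19.

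Markers of some blood cells, those of platelets, mast cells and eosinophils and part of the neutrophil list, were lower in the mutants as well, and their part in the stefin differences was not tested. Of 16 neutrophil markers, 12 were lower and 4 higher in the mutants; their median difference was -0.93, and 3 fell past the threshold: S100a8, S100a9 and Mpo. Those 3 encode the calprotectin subunits and myeloperoxidase; with litter as a block no marker call remained past the threshold, since no feature did. The mean log2 level of the 16 was -0.56 to -0.01 on the wild type and -1.95 to -1.15 on the mutant arrays, so that the groups did not overlap. Elane, Csf3r, Ly6g and Itgam were the 4 with a higher mean, and Ly6g was well above background on 3 wild type and 4 mutant arrays. Of the mast cell and eosinophil markers, 10 of 10 tested were lower and 3 fell, Hdc, Prg2 and Ear2, with a list level of -0.82 to -0.17 on the wild type and -3.67 to -2.56 on the mutant arrays. Ear2 was well above background on 4 wild type arrays and 1 mutant array, so its call rests partly on values near background. All 7 platelet markers were lower and 3 fell, Gp9, Gp1ba and Treml1, with list levels of 1.97 to 3.08 and -0.76 to 0.45. Of the 10 macrophage markers, 9 were lower and 1 higher in the mutants, with a median difference of -0.20 and 0 past the threshold. Their list levels overlapped between genotypes at -0.74 to 0.88 and -1.10 to 0.54, while 7 of them were past the threshold between litters. Of the 5 epithelial markers, which were included because stefin A is also known from skin, 0 passed, with list levels of -0.64 to 1.41 on the wild type and -0.32 to 0.81 on the mutant arrays. The 5 erythroid markers were all higher on average in the mutants and 0 passed, with list levels of 2.78 to 5.70 and 3.62 to 5.50. Hba-a1 was saturated on 4 arrays and Hbb-y on 1, which limits that list. In the macrophage, endothelial, epithelial and erythroid lists 0 genes had an unadjusted p under 0.05 between genotypes by limma. Between litters, 3 of 10 endothelial, 2 of 5 erythroid and 1 of 5 epithelial markers also passed the adjusted threshold, against 4.91% of all features. In the neutrophil, platelet and mast cell and eosinophil lists 0 did. These marker lists were drawn up with earlier results of these arrays known.

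The genes whose pattern over the 8 arrays was most like that of each member were found by the root mean square difference of centred log2 values among 21448 named genes. The arrays are shared, and the centred values include the genotype difference on which the members were chosen. Genes with a like genotype difference therefore lie near, such as S100a9 at -4.93 beside Stfa1 at -5.58. This is a description of likeness and no separate evidence of a link. For Stfa1 the nearest were S100a9 at 0.56, Cpa3 at 0.64 and Mpo at 0.83, followed by Treml1 and Ear2, where Stfa1 itself had a root mean square of 2.96 about its mean. For Cstdc5 they were Slamf1 at 0.42, S100a8 at 0.47, the stefin Cstdc4 at 0.51, Gp1ba and Ly6g6f. Cstdc4 was also the second nearest to Stfa2l1, at 0.57, after Olfr291 at 0.51 and before Epx, Il13 and Itga2b.

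Stfa2 and Cst7 shared Sla among their nearest genes. For Stfa2 the order was Adora3 at 0.30, LOC100040412, Btk, Tesc and Sla. For Cst7 it was Il4 at 0.24, Sla, H2-Oa, Tbxas1 and Fyb. Stfa3 lay nearest to D430040L24Rik at 0.24, then Muc13, I830077J02Rik, Shisa8 and Ltb4r1. Cstb and Cst3 varied little, with root mean squares of 0.39 and 0.34 about their means, and lay within 0.06 of Ppm1g, Csad, Klhl12, Ccdc86 and Prdm2 and of Cnp, Rilp, Scamp2, Tax1bp1 and Gna13.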

How the data were processed

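The 8 deposited scanner files give spot intensity on a linear scale, background-subtracted and detrended within the array by Agilent Feature Extraction 10.7.3.1 on build mm9, per the file headers; the deposited flags (other values) mark controls, saturation and spots above background. The authors' deposited table gives log2 values, p-values and limma scores; it was made with limma, version not given, per the submitters' processing notes. Its log2 columns were compared with each array's log2 intensity centred on the median over non-control spots. The median gap per array was at most 2.6e-12 in size. The deposited values gave 36355 features against 40230 here and served as an alternative. Its p-values and scores were not used.

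Here log2 intensity was scaled to the 75th percentile of the non-control spots of the array, outlier spots included. Control and outlier spots were then left out. Spots of a probe were averaged, the probe with the highest mean stood for a gene, and probes with 4 or more of 8 arrays well above background were tested with limma 3.58.1 (R 4.3.3), with Benjamini-Hochberg adjustment over all features. Of the probes, 26762 were named through their accession, 3819 by symbol, 639 by a unique synonym, 2044 kept the file's name and 22417 had none. Each embryo was a separate sample. Array number limits the precision. Members and lists were chosen with earlier results of these data known. From each relative or protease list up to 4 genes past the threshold, otherwise the 2 with the highest mean level, were named, with 5 nearest-pattern genes per member. Further stefins, Ctsc, Ctsg, single markers, litter calls and flanking genes were named with their values known. The fit was tested on simulated data. Normalization, filters, blocks and array omissions were varied.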

Additional observations from a re-analysis of the deposited data

Results flagged for a closer look

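In groups of 4 arrays, the array farthest from the others was compared with the whole range of the group, a rule by which chance marks about 1 in 20 groups; 28 groups were examined and 3 met it. Among the wild type arrays, Stfa3 stood at -1.47 on wild type 2, below the other wild type arrays. Among the mutant arrays, Cst3 stood at 4.27 on mutant 4, below the other mutant arrays. Csta1, not well above background elsewhere, stood at -2.15 on mutant 2.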

How the results depend on the processing

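Stfa1, Stfa2, Stfa3, Stfa2l1, Cstdc5 and Cst7 kept a lower mean in the mutants under every alternative that gave them a value. The genes were chosen on this contrast, so the kept sign is a description. For all of these but Stfa3 the groups did not overlap, so leaving arrays out could not change the sign. The cause of the changes below was not tested. The number of features past the threshold between genotypes was 18 and stayed 18 with the array median. It became 1 with quantile normalization, 5 with normexp and quantile normalization and 8 with all non-control probes. It was 27 with probes well above background on all 8 arrays and 30 with dim values raised to a floor. On the authors' deposited log2 values, over 36355 features, it was 52 (40 lower, 12 higher). The number became 0 with litter as a block, with the sample number as a replicate block (1386 at an unadjusted p under 0.05) and without wild type 2, wild type 3 and mutant 4, and 0 to 24 with one array left out. Same-numbered samples of the 2 genotypes correlated in their deviations at 0.62, -0.03, -0.10 and -0.16, so the numbers do not pair them; under the replicate block Cstdc4 had an adjusted p of 0.174. The 1 relative past the threshold became 0 with all non-control probes, all-8-array probes, the mean of the probes of a gene, either block and without the 3 arrays, and 0 to 1 with one array left out. The 1976 litter features (360 lower, 1616 higher) became 1012 with the array median (560 lower, 452 higher), 778 with quantile normalization (343 lower, 435 higher), 6015 without the 3 arrays (2589 lower, 3426 higher) and 4 to 4034 with one array left out; normexp gave 636 lower and 695 higher, the deposited values 846 and 685. The interaction gave 4 features on the deposited values. Litter differences changed sign as follows, none past the threshold: Stfa1 to -0.32 (array median and deposited values), -0.25 (quantile), -0.051 (floor) and -0.16 (without the 3 arrays), with -0.43 to 0.92 over single arrays left out; Stfa2 to -0.17 (array median and deposited), -0.14 (quantile) and -0.13 (normexp); Stfa2l1 to -0.025 (quantile), -0.15 (normexp) and -0.44 (without the 3 arrays), with -0.13 to 1.19 over single arrays; Cstdc5 to -0.35 (array median and deposited) and -0.50 (without the 3 arrays), with -0.18 to 0.48; Cstb to 0.31 (quantile) and 0.37 (normexp), with -0.37 to 0.0077; Cst3 to 0.46 (quantile) and 0.47 (normexp). Stfa1, Stfa2l1, Cst7 and Cstdc4 gave no value with probes well above background on all 8 arrays, and litter was not fitted together with a block. Signal near background limits the size of the differences of Stfa1, Stfa2l1 and Cstdc4.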
